A study of Mus musculus with 5 samples.

Results

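The tumour necrosis factor (TNF) superfamily was examined in leukocytes of mouse lung as 40 genes: every row of the deposited table whose symbol begins with Tnfsf or Tnfrsf and a digit, together with Tnf, Lta, Ltb, Ltbr, Cd27, Cd40, Cd40lg, Cd70 and Traf1 to Traf7 where the table held them, of 14462 rows in all. They comprised 11 ligands, 21 receptors, the 7 TRAF adaptors and Tnfsf13os, a non-coding RNA that the name rule also takes in. Cd70, Tnfsf4, Tnfsf15, Tnfsf18, Tnfsf13, Tnfrsf17 and Tnfrsf11b, which belong to the family, had no row and are not analysed here. The IR group consisted of 2 libraries of CD45+ cells from the lungs of mice bearing MC38/MC38 tumours, in which MC38 tumours were irradiated, and the lungs were taken 3 days later. The ctrl group consisted of 3 libraries of the same cells from mice with the same tumours, and the labels call them ctrl without further description. MC38 is a mouse tumour cell line derived from a colon adenocarcinoma, and CD45, encoded by Ptprc, is a surface protein of nearly all leukocytes. Neither the strain, sex, age or radiation dose nor the meaning of the paired tumour name is given in the labels. Nothing states that the libraries came from separate animals, so p-values measure only the spread between these libraries, which may be technical.

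Ligands of the TNF superfamily are trimeric proteins, mostly held on the cell surface, that cluster receptors on a neighbouring cell. Receptors without a death domain recruit TRAF adaptors, which lead to NF-kB and MAP kinase signalling, and those with a death domain can also start cell death. Between leukocytes, these pairs pass on inflammation, T cell costimulation and B cell survival, and macrophages, neutrophils and lymphocytes of the lung all carry members of the family.

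A single member, Tnfsf14, passed the test between IR and ctrl. It encodes LIGHT, a ligand of activated T cells and myeloid cells that binds the receptor HVEM (Tnfrsf14) and the lymphotoxin beta receptor (Ltbr). Its scaled read count, the unit of all values here unless stated, was 568 and 1069 in the IR libraries, against 224, 243 and 417 in the ctrl libraries. Both IR libraries lay above all 3 ctrl libraries, and IR replicate 2 was the highest. The means were 819 ± 354 in IR (SD, n = 2) and 295 ± 106 in ctrl (SD, n = 3), a rise of 1.46 ± 0.33 in log2 units (SE; limma adjusted p = 0.0251) or 2.75-fold, on the log2(value + 1) scale. This call was lost without ctrl replicate 1 (limma adjusted p = 0.205) or ctrl replicate 2 (0.154), and held without ctrl replicate 3 (0.0275). With 1 IR library left, the log2 fold change was 1.913 without IR replicate 1 and 1.003 without IR replicate 2.

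Of the whole table, 1.5% of 12777 genes tested passed, 1.14% higher and 0.36% lower in IR, so 1 of 40 members is near the background. At an unadjusted limma p under 0.05 there were 7 of 40 members (17.5%), 4 higher and 3 lower, against 15% of all genes. Groups did not overlap in 12 members (30%), against 31.5% of all genes. Of these, 8 (20%) were higher in IR, where the table as a whole had 15.2%, and 4 (10%) were lower, where the table had 16.3%. The smallest p that an exact permutation test allows with 2 libraries against 3 is 0.1. The median log2 fold change was -0.08 over the 40 members and -0.05 over all genes tested. All 40 members passed the filter on low values, which required 10 or more in 2 or more libraries. Lta and Tnfrsf25 did so through ctrl libraries only, so their lower position in IR was built into the filter.

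Marker lists of several cell types moved with the groups. All 14 neutrophil markers lay higher in both IR libraries and 6 of them passed the test; their summed value was 78952 and 152689 in IR, against 31877 to 56746 in ctrl, and none was at 0. Of 17 lung epithelial markers 6 lay higher in both IR libraries and 1 lower, and 2 passed as higher. Their log2 fold changes were positive in 13 and negative in 4. Their sum was 120324 and 58830 in IR, against 24399 to 28561 in ctrl, and Foxj1 was at 0 in IR replicate 2. In every library most of this sum came from 1 secretoglobin gene, so the sum does not stand for the list. Of 17 T cell markers 11 lay lower in both IR libraries and 0 higher, and 2 passed as lower, with sums of 6782 and 5360 in IR, against 9701 to 11194 in ctrl. Of 14 B cell markers 6 lay lower and 0 higher, and 1 passed as lower, with sums of 20331 and 14365 in IR, against 17621 to 29920 in ctrl. No T cell or B cell marker was at 0. The plasma cell, NK cell, dendritic cell, endothelial and fibroblast sums overlapped between groups, with 0 of their genes called by limma and with Xcr1, Tek, Tie1 and collagen genes at 0 in some libraries; at an unadjusted p under 0.05 there was 1 gene each of the first 4 lists and 0 of the last. Of 11 alveolar macrophage markers 4 lay lower in both IR libraries and 0 passed limma's threshold (3 at an unadjusted p under 0.05), with sums of 14848 and 14428 in IR, against 15157 to 16136 in ctrl. Of 9 classical monocyte markers 4 lay higher and 2 passed as higher, with sums of 52462 and 57341 in IR, against 34135 to 36602 in ctrl. Chil3 is on both this list and the alveolar macrophage list. It made up a large part of the alveolar macrophage sum and was highest in IR replicate 1. Ptprc itself stood at 17369 and 27247 in IR, against 15543 to 15842 in ctrl. Totals of the scaled counts were 7544034 and 8414753 in IR and 7232126 to 7425923 in ctrl, and the smallest step between values was 0.726 to 0.934, so that a value of 10 stood for about 10.7 to 13.8 reads. In a bulk library, fewer cells of a type and less RNA per cell cannot be told apart. The part of these cell types in the rise of Tnfsf14 was not tested.

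**Figure D1:**
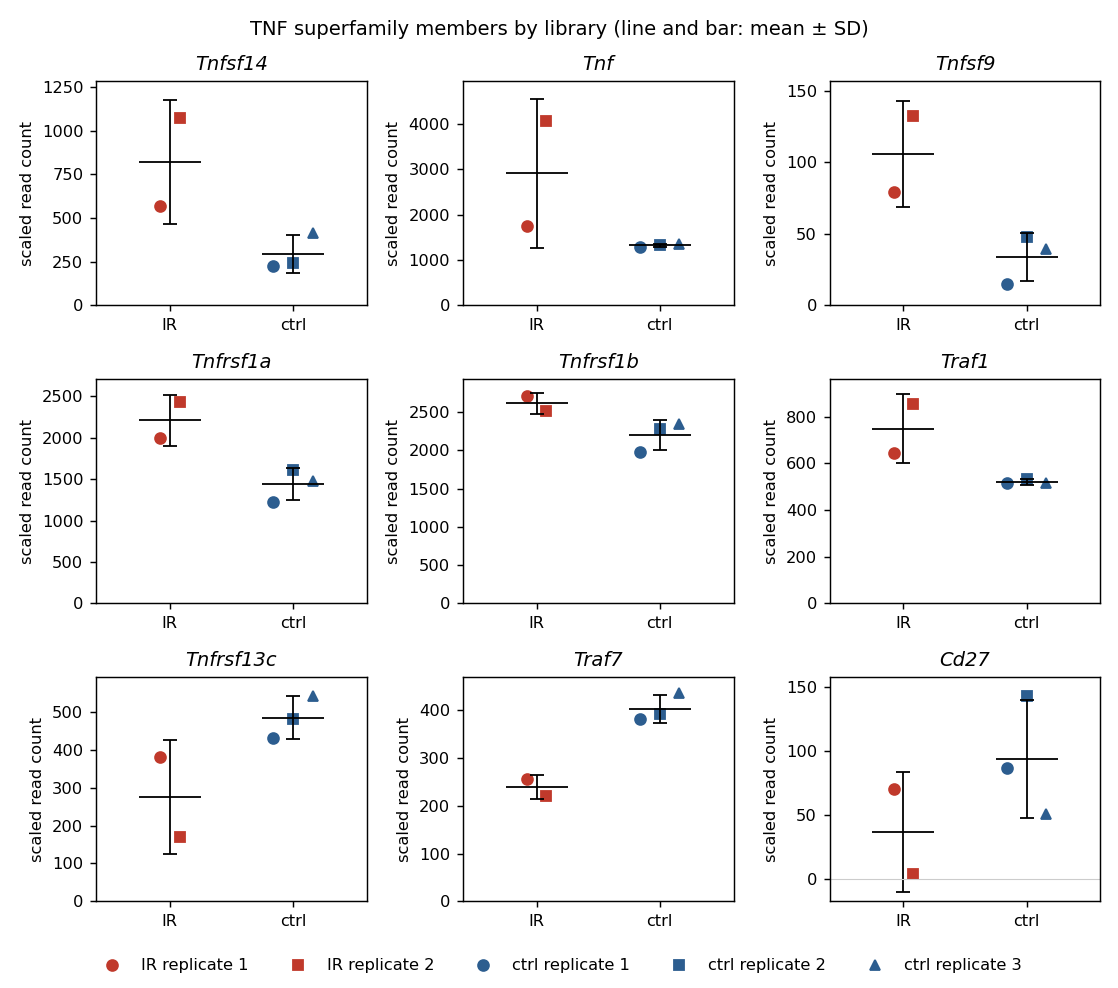
Scaled read count (linear axis from 0, or just under it where an SD bar crosses 0) of 9 members in each IR library (red, left) and each ctrl library (blue, right), with a line and bar for the mean ± SD. Tnfsf14, Tnf, Tnfsf9, Tnfrsf1a, Tnfrsf1b and Traf1 lie higher in both IR libraries than in all 3 ctrl libraries, Tnfrsf13c and Traf7 lie lower, and the Cd27 groups overlap.

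Tnf and the lymphotoxin genes lie side by side on chromosome 17, in the order Ltb, Tnf, Lta within 10.9 kb (35194439 to 35205351, mm10), and none of the 3 passed. Tnf, the founding cytokine of the family and a product of activated macrophages and other leukocytes, had values of 1753 and 4061 in IR, against 1296, 1321 and 1356 in ctrl. The 3 ctrl values lay close together, while the IR libraries differed 2.32-fold. At a log2 difference of 1.01 ± 0.27 (SE), Tnf did not pass (limma adjusted p = 0.0716). Its log2 fold change was 1.62 without IR replicate 1 and 0.40 without IR replicate 2. Each of these fits leaves 1 IR library, so no spread within IR enters them. Ltb, which encodes the membrane anchor of the lymphotoxin heterotrimer and is a lymphocyte gene, had 535 and 608 in IR, against 597, 504 and 713 in ctrl. The Ltb groups overlapped (log2 fold change -0.07 ± 0.26 SE, limma adjusted p = 0.927), although the summed T cell markers were lower in both IR libraries. Lta, the soluble lymphotoxin of T and B cells, was listed at 0 in both IR libraries, against 11.8, 15.5 and 6.5 in ctrl; at the smallest step the highest of these is about 17 reads.

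The upstream sequences of Tnfsf14 and Tnf are shown because these genes had the smallest p-values of the family and both were higher in IR replicate 2 than in any other library. Each run gives the 250 bases before the RefSeq transcription start (GRCm38.p6, the assembly of mm10), on the gene's own strand, which is the minus strand for both. Tnfsf14 covers chr17:57194182-57194431 and Tnf covers chr17:35202008-35202257. Capitals mark an AP-1 motif (TGANTCA) in Tnfsf14 and a TATA box (TATAAA) in Tnf, searched on either strand; neither overlaps another motif searched.
Tnfsf14: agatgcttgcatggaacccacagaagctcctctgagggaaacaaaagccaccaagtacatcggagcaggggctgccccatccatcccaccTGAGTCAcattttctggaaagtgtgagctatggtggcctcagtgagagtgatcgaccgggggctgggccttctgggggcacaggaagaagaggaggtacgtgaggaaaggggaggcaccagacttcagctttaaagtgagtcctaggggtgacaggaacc
Tnf: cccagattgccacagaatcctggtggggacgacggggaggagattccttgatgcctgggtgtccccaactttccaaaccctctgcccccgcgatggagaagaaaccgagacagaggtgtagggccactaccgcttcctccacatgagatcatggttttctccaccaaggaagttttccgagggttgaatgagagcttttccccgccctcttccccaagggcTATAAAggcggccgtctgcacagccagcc
The TATA box of Tnf lies at positions -29 to -24 and the AP-1 motif of Tnfsf14 at positions -160 to -154, with -1 the last base before the start. Among 32851 windows of this length in the RefSeq table, 6.75% held the AP-1 motif and 12.4% the TATA box. Of the 36 windows of the 32 members matched, 4 held the AP-1 motif (those of Tnfrsf8, Tnfrsf9, Tnfsf13b and Tnfsf14) and 4 the TATA box (Lta, Tnf, Tnfrsf23 and Tnfsf11). The NF-kB consensus was present in 3.90% of all windows and in 4 of the members' windows, those of Ltb, Tnfrsf8, Tnfrsf9 and Traf3. A match is a run of letters and no evidence of binding.

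None of the 4 receptors for TNF and lymphotoxin passed. Tnfrsf1a, the widely expressed death domain receptor TNFR1, had 1990 and 2424 in IR, against 1226, 1615 and 1479 in ctrl. Both IR libraries lay above all ctrl libraries (log2 fold change 0.62 ± 0.21 SE, limma adjusted p = 0.147). Tnfrsf1b, the leukocyte receptor TNFR2, had 2715 and 2520 in IR, against 1973, 2278 and 2352 in ctrl. Here too the groups did not overlap, by a smaller margin (0.25 ± 0.20 SE, limma adjusted p = 0.581). After scaling to library totals the log2 fold changes were 0.50 for Tnfrsf1a and 0.13 for Tnfrsf1b, and the groups of Tnfrsf1b then overlapped. The receptors of LIGHT overlapped between groups. Tnfrsf14 had 183 and 114 in IR, against 74.3, 51.1 and 174.5 in ctrl, and Ltbr, the receptor shared by LIGHT and lymphotoxin, had 233 and 374 in IR, against 329, 204 and 329 in ctrl. So Tnfsf14 rose while neither gene of a receptor for it passed; the difference between ligand and receptor was not tested.

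Costimulatory ligands are surface proteins of antigen-presenting cells and activated T cells. Tnfsf9, the ligand of 4-1BB, neighbours Tnfsf14 on chromosome 17, and the 2 genes lie within 88.9 kb (57105325 to 57194177). Tnfsf9 had 79.5 and 132.0 in IR, against 15.2, 47.5 and 39.4 in ctrl, so it too was higher in both IR libraries. It did not pass (1.71 ± 0.75 in log2 units, SE, limma adjusted p = 0.288), and 14.9% of its exon length is shared with the antisense-strand gene Gm11110. Its receptor gene Tnfrsf9 had 51.4 and 47.9 in IR, against 13.5, 45.7 and 40.9 in ctrl, which did not overlap either, although they did after scaling to library totals. Cd40lg, the T cell ligand that activates CD40 on B cells and dendritic cells, had 46.7 and 15.1 in IR, against 44.8, 29.2 and 60.6 in ctrl, and Tnfsf8, the CD30 ligand, had 65.4 and 13.4 in IR, against 28.3 to 38.0 in ctrl. Both overlapped between groups, and in both genes IR replicate 2 was the lowest of the 5 libraries.

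Among the 6 costimulatory receptors none passed. Cd40 had 124 and 129 in IR, against 162, 226 and 127 in ctrl, with overlapping groups that came apart after scaling to library totals (log2 fold change -0.40 ± 0.44 SE, limma adjusted p = 0.716). Tnfrsf18, which encodes GITR of regulatory and activated T cells, had 124 and 98.3 in IR, against 129, 11.9 and 94.1 in ctrl. At 1.04 ± 0.81 in log2 units (SE) it did not pass (limma adjusted p = 0.590), and without the low ctrl replicate 2 the difference was 0.0029. In the annotation, 27.2% of its exon length is shared with an antisense gene. Cd27, a receptor of naive T cells and NK cells, had 70.1 and 4.2 in IR, against 87.1, 142.5 and 51.1 in ctrl. IR replicate 1 lay within the ctrl range and IR replicate 2, at about 5.01 reads, far below it. Tnfrsf4, which encodes OX40, split the IR libraries the other way, with 4.7 and 82.4 in IR, against 22.8 to 35.7 in ctrl. Tnfrsf8, the receptor CD30, had 35.5 and 11.7 in IR and 19.4 to 39.4 in ctrl.

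The B cell survival axis consists of the ligand BAFF and its receptors. Tnfrsf13c, the BAFF receptor of mature B cells, had 381 and 169 in IR, against 431, 481 and 543 in ctrl. Both IR libraries lay below all ctrl libraries, IR replicate 2 most (log2 fold change -0.92 ± 0.33 SE, limma adjusted p = 0.177). With 1 IR library left, the log2 fold change was -1.51 without IR replicate 1 and -0.34 without IR replicate 2. Tnfrsf13b, the receptor TACI, had 221 and 317 in IR, against 507, 176 and 396 in ctrl, which overlapped (-0.31 ± 0.39 SE, limma adjusted p = 0.756). All 14 B cell markers had negative log2 fold changes (median -0.64), 6 of them did not overlap between groups, and 1, Ebf1, passed. Tnfsf13b, which encodes BAFF, a product of myeloid and stromal cells, had 32.7 and 70.6 in IR, against 21.1, 7.3 and 11.6 in ctrl. Both IR values were above all ctrl values, but it did not pass (1.89 ± 1.12 SE, limma adjusted p = 0.439). The part that the share of B cells or of neutrophils had in these values was not tested.

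**Figure D2:**
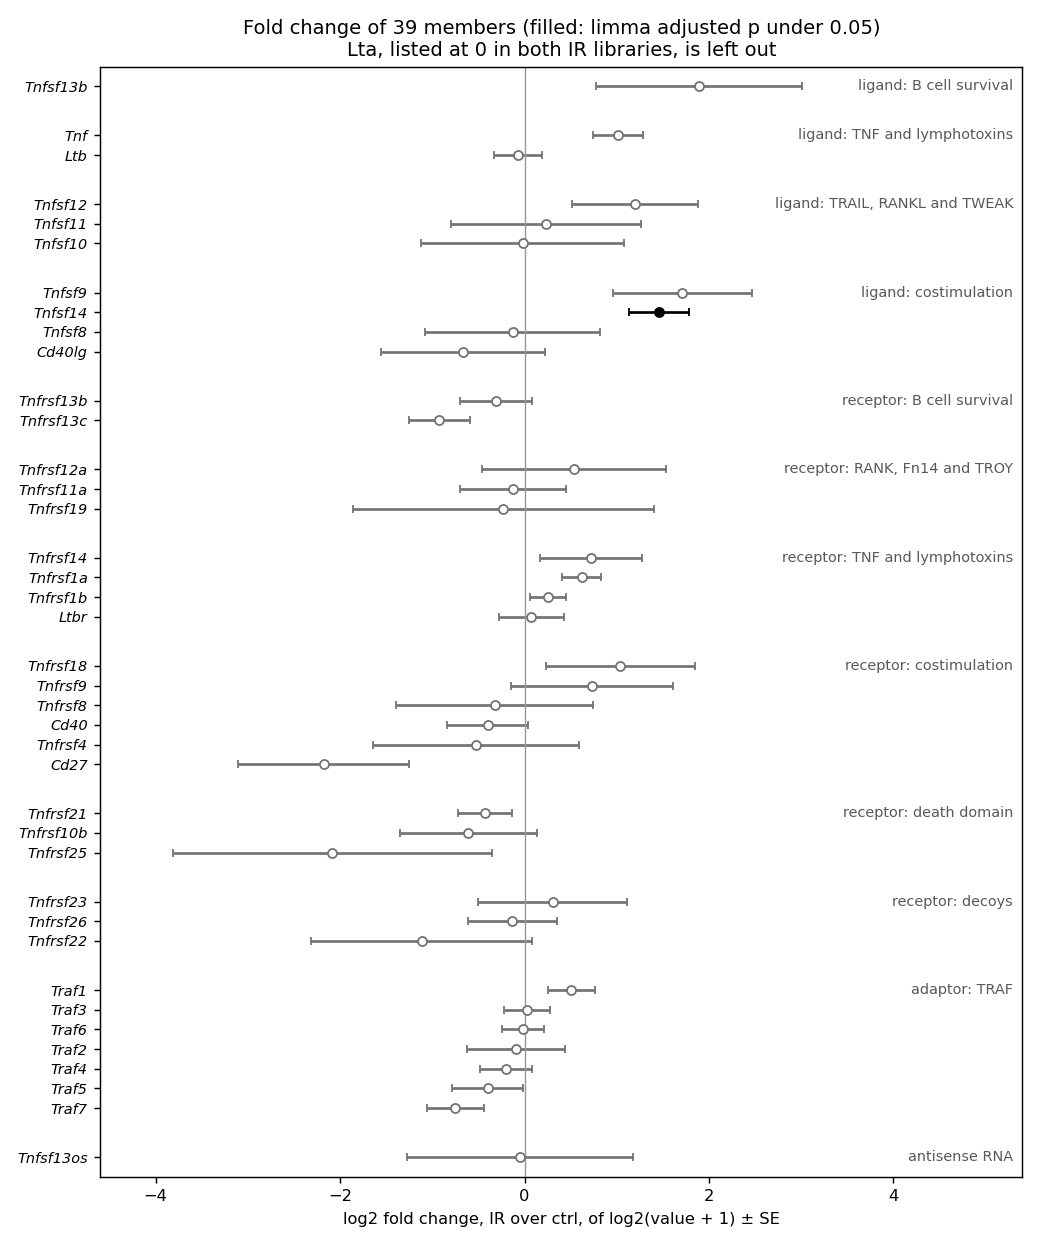
Log2 fold change (x axis, IR over ctrl, of log2(value + 1)) of 39 members in rows grouped by role, with points for the limma estimate and bars for its SE. The filled point, Tnfsf14 at 1.46, passed an adjusted p under 0.05; the other 38 did not.

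Of the remaining ligands, Tnfsf12, which encodes TWEAK, had 89.7 and 171.5 in IR, against 19.4, 110.5 and 70.0 in ctrl, with overlapping groups (log2 fold change 1.20 ± 0.68 SE, limma adjusted p = 0.419; 0.49 without ctrl replicate 1). In the annotation 48.3% of its exon length is shared with Tnfsfm13, a gene joining Tnfsf12 and Tnfsf13, so the reads may not be its own. Its receptor gene Tnfrsf12a, encoding Fn14, split both groups: it had 87.9 and 19.3 in IR, and 17.7, 13.7 and 90.7 in ctrl (0.53 ± 1.0 SE, limma adjusted p = 0.846). Tnfsf11, which encodes RANKL, had 26.2 and 37.8 in IR, against 56.7, 7.3 and 43.1 in ctrl (0.23 ± 1.03 SE, limma adjusted p = 0.942). Tnfrsf11a, its receptor RANK, had 76.6 and 108.4 in IR, against 99.7, 190.9 and 51.8 in ctrl (-0.13 ± 0.58 SE, limma adjusted p = 0.943). Groups overlapped for this ligand and for its receptor.

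TRAIL, encoded by Tnfsf10, is a death ligand, and its level was low throughout, with 30.8 and 15.1 in IR, against 25.3, 30.1 and 13.8 in ctrl. Its mouse death receptor Tnfrsf10b, a target of p53, had 26.2 and 60.5 in IR, against 75.2, 93.2 and 32.8 in ctrl (log2 fold change -0.61 ± 0.75 SE, limma adjusted p = 0.751). The ligand and the receptor both overlapped between groups. The mouse decoy receptors Tnfrsf22 and Tnfrsf23 lie beside Tnfrsf26 within 78.2 kb of chromosome 7 (143607659 to 143685872). Tnfrsf22 had 2.8 and 53.8 in IR, against 25.5 to 39.7 in ctrl, and Tnfrsf23 had 20.5 and 169.8 in IR, against 33.8, 57.5 and 56.9 in ctrl (0.31 ± 0.81 SE, limma adjusted p = 0.898). In both genes the IR libraries lay on either side of the ctrl range. Tnfrsf26 did not show this, with 113 and 108 in IR, against 121, 98.6 and 150.4 in ctrl (-0.13 ± 0.48 SE, limma adjusted p = 0.927). These 3 genes are related in sequence, and how reads that match several of them were counted is not given in the sources used here. Of the further death domain receptors, Tnfrsf21, which encodes DR6, had 524 and 291 in IR, against 571, 570 and 449 in ctrl (-0.43 ± 0.29 SE, limma adjusted p = 0.523). Tnfrsf25, the T cell receptor DR3, had 1.9 and 2.5 in IR, against 16.9, 6.4 and 17.6 in ctrl. Tnfrsf19, which encodes TROY and was grouped with RANK and Fn14 rather than with the death domain receptors, had 14.9 and 3.3 in IR, and 4.2 to 13.7 in ctrl.

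**Figure D3:**
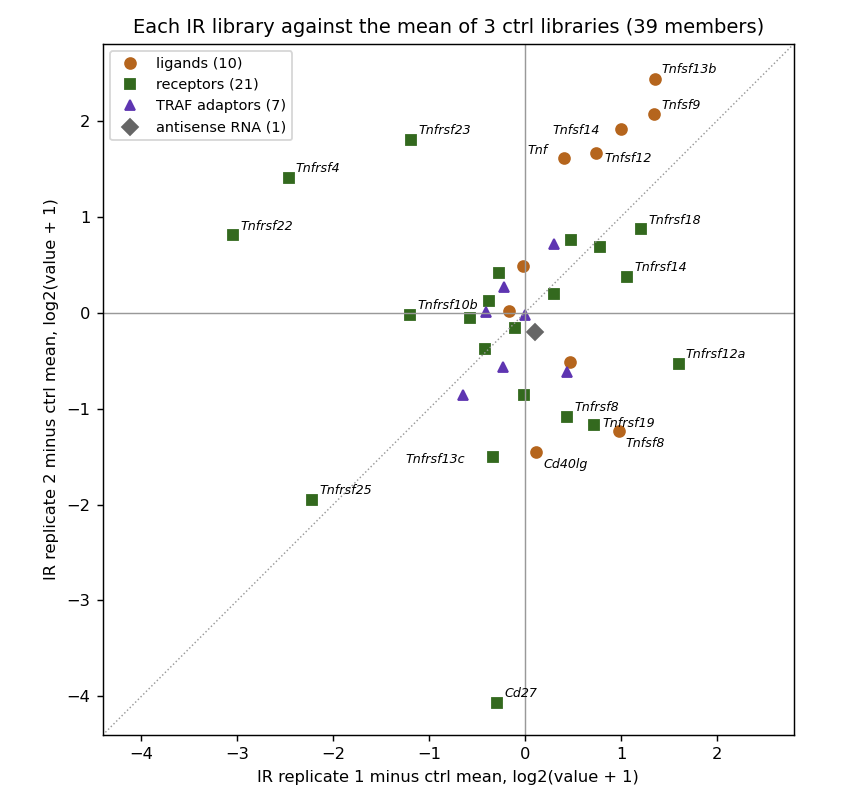
Difference from the mean of the 3 ctrl libraries on the log2(value + 1) scale for IR replicate 1 (x axis) and IR replicate 2 (y axis), with 1 point per member and Lta left out. Tnfsf14, Tnfsf9, Tnfsf13b, Tnfsf12 and Tnf lie upper right, above the dotted line of equal values; Tnfrsf4, Tnfrsf22 and Tnfrsf23 lie upper left and Cd27 lies far below.

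The IR libraries disagreed on many members. Against the ctrl mean, 11 of 40 members lay above in both IR libraries and 11 below in both, and 18 lay on opposite sides; 55.0% thus had the same sign, and 63.5% of all genes did. Tnfsf14, Tnf, Tnfsf9, Tnfsf12 and Tnfsf13b were above in both, and each of the 5 was further above in IR replicate 2, as were Tnfrsf1a and Traf1. The other members above in both, Tnfrsf14, Tnfrsf18, Tnfrsf1b and Tnfrsf9, were further above in IR replicate 1. IR replicate 2 also held the higher neutrophil sum. Its T cell sum was the lower of the pair, as were its Cd27, Cd40lg and Tnfsf8 values, while its Tnfrsf4 value was the higher. Its Ltb value was higher by only 1.14-fold. Tnfrsf25, at 1.9 in IR replicate 1 and 2.5 in IR replicate 2, was too low to give a direction. A share of these values that goes with neutrophils, T cells or epithelium was not tested.

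TRAF adaptors carry the signal from the receptors to kinases and NF-kB, and none of the 7 passed. Traf1, itself induced by NF-kB, had 643 and 852 in IR, against 514, 534 and 514 in ctrl, and was the TRAF gene whose IR values lay above all ctrl values. Traf7, a TRAF-related protein with WD40 repeats, had 256 and 221 in IR, against 380, 391 and 436 in ctrl, below in both IR libraries (log2 fold change -0.75 ± 0.31 SE, limma adjusted p = 0.244). The remaining 5 overlapped between groups. Traf6, the adaptor shared with Toll-like and interleukin-1 receptors, was the most even, with 892 and 873 in IR, against 932, 963 and 788 in ctrl (-0.01 ± 0.23 SE, limma adjusted p = 0.984). Traf3, which holds back non-canonical NF-kB signalling, had 542 and 761 in IR, against 675, 574 and 648 in ctrl (0.03 ± 0.25 SE, limma adjusted p = 0.973). The direction of Traf3 flipped after scaling to library totals (-0.095), and that of Traf6 with median-ratio factors (0.0092). Traf2, the main adaptor of TNFR2, had 144 and 68.9 in IR, against 74.9 to 134.3 in ctrl. Traf4 had 362 and 483 in IR, against 382 to 543 in ctrl, and Traf5, which acts downstream of CD27, OX40 and other receptors, had 194 and 153 in IR, against 183 to 283 in ctrl.

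**Figure D4:**
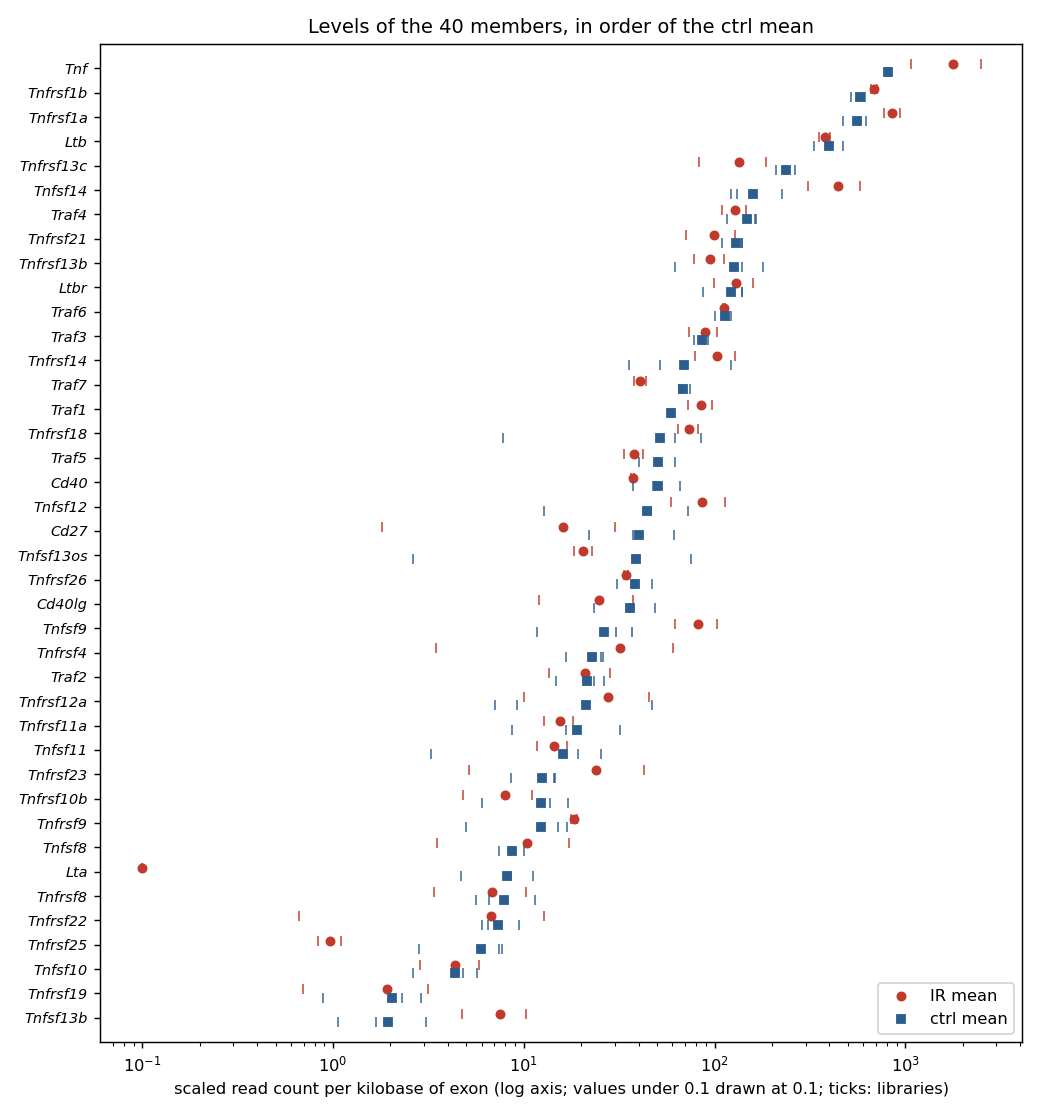
Scaled read count per kilobase of exon (x axis, log scale) of the 40 members in order of the ctrl mean, with circles for the IR mean, squares for the ctrl mean and ticks for libraries. Tnf, Tnfrsf1b, Tnfrsf1a and Ltb head the ctrl order and Tnfsf13b ends it.

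Levels per kilobase of exon differed widely among the members. Tnf had the highest level, 1773 ± 996 per kb in IR (SD, n = 2) and 808 ± 18.4 per kb in ctrl (SD, n = 3). Tnfrsf1a followed in IR with 852 ± 118 per kb, against 556 ± 76.1 per kb in ctrl, and Tnfrsf1b had 686 ± 36.0 per kb in IR and 576 ± 52.5 per kb in ctrl. In ctrl the levels of these receptor genes did not differ beyond their spread. Tnfsf14 held rank 4 in IR at 443 ± 192 per kb and rank 6 in ctrl at 159 ± 57.5 per kb. Its receptor genes were lower, Ltbr with 129 ± 42.4 per kb in IR and 122 ± 30.7 in ctrl, and Tnfrsf14 with 103 ± 34.3 per kb in IR and 69.5 ± 45.6 in ctrl. Tnfrsf13c held rank 6 in IR at 134 ± 73.4 per kb and rank 5 in ctrl at 237 ± 27.5 per kb. At the low end, Tnfsf13b had 7.52 ± 3.90 per kb in IR and 1.94 ± 1.03 per kb in ctrl.

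Tnfsf13os, a non-coding RNA on the strand opposite Tnfsf13, had 25.2 and 20.2 in IR, against 43.1, 83.2 and 2.9 in ctrl (log2 fold change -0.05 ± 1.22 SE, limma adjusted p = 0.989). It shares 19.9% of its exon length with Tnfsf13, and the strand setting of the counting is not given in the sources used here, so its reads may belong to that gene.

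Other genes of the pathway were taken from fixed lists. Of 32 genes that act next to the receptors (adaptors, kinases, ubiquitin enzymes and the protease that sheds TNF), 0 passed limma's adjusted threshold; 4 had an unadjusted p under 0.05, against 15% of all genes. Groups did not overlap in 2 higher and 6 lower genes (25%), against 31.5% of all genes. Their median log2 fold change was -0.0023, near that of all genes. Tab2, which links ubiquitin chains to the kinase TAK1, had 1949 and 2627 in IR, against 1470, 1578 and 1566 in ctrl (log2 fold change 0.56 ± 0.21 SE, limma adjusted p = 0.188). Birc2, a ubiquitin ligase bound to TRAF2, had 480 and 655 in IR, against 773, 1073 and 824 in ctrl (-0.65 ± 0.25 SE, limma adjusted p = 0.207). Relb, the partner of p52 in non-canonical NF-kB, had 323 and 471 in IR, against 560, 675 and 564 in ctrl (-0.62 ± 0.27 SE, limma adjusted p = 0.290). Tab2 thus lay above ctrl in both IR libraries, and Birc2 and Relb below.

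Family members with other names were 7 genes, of which Fas, Fasl, Relt and Ngfr had rows. Of these 4, 0 passed limma's adjusted threshold and 2 had an unadjusted p under 0.05, against 15% of all genes. Ngfr, the neurotrophin receptor p75, had 16.8 and 15.9 in IR, against 61.7, 109.6 and 78.1 in ctrl (log2 fold change -2.24 ± 0.78 SE, limma adjusted p = 0.160). Relt, a receptor of haematopoietic tissue, had 267 and 294 in IR, against 164, 159 and 147 in ctrl (0.84 ± 0.38 SE, limma adjusted p = 0.298). Fas, the death receptor induced by p53, had 146 and 291 in IR, against 142, 137 and 84.6 in ctrl (0.80 ± 0.46 SE, limma adjusted p = 0.427). Groups did not overlap in these 3 genes, against 31.5% of all genes, and a list of 4 is too short to compare with that share. They overlapped in Fasl, which encodes the ligand of Fas and had 310 and 189 in IR, against 118 to 225 in ctrl.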

How the data were processed

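RNA of CD45+ lung cells was made into libraries with SMARTer Pico, a low-input kit that keeps strand, per the labels' protocols. The authors deposited 1 table of 14462 genes and 5 libraries. Its values are a signal: read counts that the authors scaled between libraries in a way that the sources used here do not give. HISAT2, HTSeq and mm10 are named in the submitters' processing notes. Low values fell within 0.1 of a multiple of the smallest step in 86.1% to 100% of cases per library, which was too few in ctrl replicate 3 to recover reads for a count test.

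The 12777 genes that reached 10 in 2 or more libraries entered limma 3.58.1 (R 4.3.3) as log2(value + 1), with a mean trend, robust estimation and no covariate. P-values were two-sided, adjusted by Benjamini-Hochberg over all genes kept, and called under 0.05. Adding 1 before the log shrinks the ratio between low values. Where the libraries of a group differ widely, the log2 fold change can also part from the ratio of the means. For Tnfrsf4 the mean was 43.6 in IR and 31.1 in ctrl, at a log2 fold change of -0.53. The procedure was tested on simulated data that gave both groups the spread of the ctrl libraries. That test therefore does not cover a different spread between the IR libraries. Members and lists were chosen with earlier results of these data known. Full statistics were given for members called, for members whose groups did not overlap at an unadjusted p under 0.05, and for the 2 of each role with the highest mean. The other members are given by level. Among these, Cd27, Lta, Tnfrsf25 and Traf1 were picked out for comment after their values were seen. The motifs and the genes of the promoter comparison were also chosen after the values were seen. Positions and exon lengths came from GENCODE vM21 (GRCm38), which held all 40 members. Upstream sequences came from RefSeq (GRCm38.p6), which held 32. Marker lists covered leukocytes, T, B, plasma, NK and dendritic cells, neutrophils, monocytes, alveolar macrophages, epithelium, endothelium and fibroblasts. The values of 1 marker gene are not reported here.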

Additional observations from a re-analysis of the deposited data

How the results depend on the processing

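Each library was left out in turn, and other pseudocounts, filters, scalings, robust estimation off and array weights were tried. With an IR library left out, the remaining one was assumed to vary like ctrl, so calls from those fits are not given. The edgeR test on whole reads was not run, since the reads could not be recovered. No paired analysis was possible because the labels give no pairing or animal. The labels carry no replicate numbers either, and those used here follow the order of the libraries. Members called numbered 1, and 2 (Tnf and Tnfsf14) with a pseudocount of 5, scaling to library totals or array weights, where the limma adjusted p of Tnf was 0.0482, 0.0499 and 0.0135. With single libraries left out they numbered 0 to 4, the 4 (Cd27, Tnf, Tnfrsf13c and Tnfsf14) without IR replicate 1. Members whose groups did not overlap numbered 12, 11 after scaling to library totals (where Tnfrsf1b and Tnfrsf9 overlapped and Cd40 no longer did), 8 of 27 with a minimum value of 50, and 12 to 26 with a library left out, since fewer libraries separate more easily. Genes called numbered 192 (146 higher, 46 lower), and 19 to 1006 with a library left out (18 to 447 higher, 1 to 559 lower). Lower calls numbered 23 with no filter, 22 with robust estimation off and 116 with scaling to library totals, which shifted the median of all genes by -0.12 and left 54.9% of calls higher, against 76.0%. Tnfsf14 kept its call in all 9 settings that used 5 libraries (limma adjusted p 0.0124 to 0.0428).

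Of 319 refits of named members, 25 turned the direction, each of a member that did not pass. With array weights these were Tnfrsf11a (0.23), Tnfrsf12a (-0.039), Tnfsf11 (-0.13), Tnfsf13os (0.89) and Traf6 (0.049); with totals Traf3 (-0.095) and with median-ratio factors Traf6 (0.0092). With a library left out the log2 fold changes ranged from -0.19 to 0.055 for Ltb, -0.59 to 0.34 for Tnfrsf11a, -0.53 to 1.6 for Tnfrsf12a, -0.76 to 0.0011 for Tnfrsf13b, -1.19 to 1.80 for Tnfrsf23, -0.28 to 0.021 for Tnfrsf26, -0.63 to 0.76 for Tnfsf11, -1.37 to 0.85 for Tnfsf13os, -0.22 to 0.27 for Traf3 and -0.10 to 0.042 for Traf6. The cause was not tested. Scaled values give no counting error; members under a value of about 50 rest on few reads.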

Other observations

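The 2 IR libraries differed at least 4-fold in 6 members: Cd27, Tnfrsf12a, Tnfrsf22, Tnfrsf23, Tnfrsf4 and Tnfsf8 (on the log2(value + 1) scale). That is 15.0% of 40 members, and 15.0% of all genes kept, with no limit on the mean in either. All 6 had a mean of 20 to 200 over the 5 libraries. Among genes with such a mean, a range that holds all 6, the share was 6 of 22 members (27.3%) and 18.7% of all genes. The higher value stood in IR replicate 2 for Tnfrsf22, Tnfrsf23 and Tnfrsf4, and in IR replicate 1 for Cd27, Tnfrsf12a and Tnfsf8. Tnfrsf22 and Tnfrsf23 are neighbours on chromosome 7, and Tnfrsf4 lies beside Tnfrsf18 on chromosome 4 within 15.1 kb, where Tnfrsf18 had 124 and 98.3 in IR.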
